A study of Mus musculus with 4 samples.

Results

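Transcripts of 10 genes that Sertoli cells secrete or switch on as they mature were compared between juvenile testes of Kctd19 knockout and heterozygous mice. The genes were taken by symbol (Clu, Trf, Kitl, Ctsl, Cst12, Cst9, Defb36, Rhox5, Tsx and Aard), and each symbol matched 1 row, giving 10 of the 55401 rows in each table. Poly(A) RNA was sequenced from whole testes of C57BL/6J mice at postnatal day 14, with 2 libraries from Kctd19+/- mice (het) and 2 from Kctd19-/- mice (ko), untreated. The heterozygotes served as the controls, and wild-type testes were not analysed here. The sources used here do not say which part of Kctd19 was removed or whether animals were pooled, so the p-values measure only the spread between these libraries. Levels are given as FPKM, the fragment count of a gene divided by its exon length and by the depth of the library.

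Sertoli cells are the somatic nurse cells of the seminiferous tubule. They surround the germ cells, supply them with iron, lipids and growth factors behind the blood-testis barrier, and release proteases and protease inhibitors that take part in the remodelling of the tubule. In the juvenile testis they stop dividing and, under follicle-stimulating hormone and androgen, change from a proliferative to a secretory state. Kctd19 is a germ cell protein, and at this age the most advanced germ cells are spermatocytes in meiotic prophase.

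Assigned reads numbered 12155089 to 19430364 per library. Kctd19 measured 29.7 and 18.2 FPKM in heterozygotes, and 12.8 and 15.6 FPKM in knockouts, a level summed over all exons, which does not check a deletion that leaves the transcript in place. All 12 Sertoli identity markers were above the filter of a mean of 1 FPKM. Their range ran from Fshr, the receptor for follicle-stimulating hormone, at a mean of 8.73 FPKM to Cldn11, a tight junction claudin, at 219 FPKM. The label of the cell type therefore had its defining transcripts in all 4 libraries. Among markers of other cells, those of pachytene spermatocytes and macrophages differed most in summed level. The 8 pachytene markers summed to 435 and 247 FPKM in heterozygotes, and 171 and 194 FPKM in knockouts. The 8 macrophage markers summed to 80.8 and 89.5 FPKM in heterozygotes, and 184 and 153 FPKM in knockouts. That list was uneven, with log2 fold changes (ko minus het) of 1.34 in C1qb, 1.31 in C1qa and 0.96 in Lyz2. In the rest of the list they ran from -0.03 to 0.59.

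None of the 10 genes differed between genotypes past the threshold. Limma on log2(FPKM + 1) called 0 of the 10 higher and 0 lower at a Benjamini-Hochberg adjusted p under 0.05, where it called 0.207% of the 17905 tested genes higher and 0.0112% lower. It also had 0 of the 10 in either direction at an unadjusted p under 0.05, against 4.9% of tested genes higher and 4.41% lower. Without ko replicate 2, which left 1 ko library, the median log2 fold change of the 10 was 0.42. Limma voom on whole reads recovered from the FPKM called 0 as well, against 0.774% of 17446 genes higher and 0.619% lower, with 2 of the 10, Clu and Cst12, higher at an unadjusted p under 0.05. The log2 fold change (ko minus het) was above 0 in 9 of the 10 and in 52.1% of all tested genes. Its median was 0.23 over the 10 genes and 0.01 over all tested genes. In 2 of the 10 each ko library exceeded each het library and in 1 they lay below, arrangements found in 22.1% and 19.7% of tested genes. An exact permutation test of 2 libraries against 2 cannot give a two-sided p below 0.333. In whole testis, a smaller or larger number of Sertoli cells cannot be told apart from less or more RNA per Sertoli cell.

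**Figure D1:**
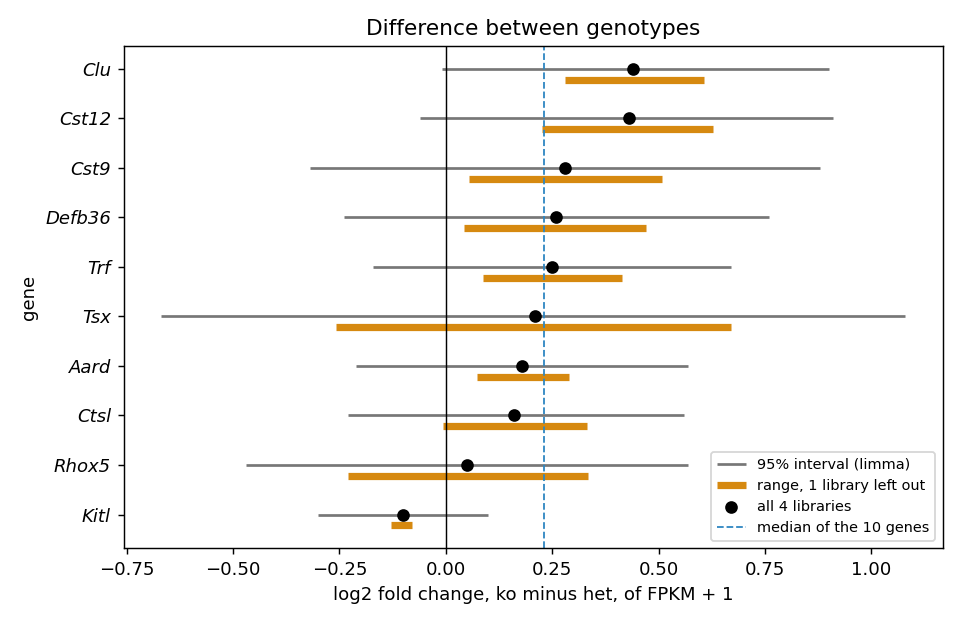
Log2 fold change (ko minus het, of FPKM + 1) of each of the 10 genes on the horizontal axis, with the 95% interval from limma in grey and, in orange, the range of the value when 1 of the 4 libraries was left out. All 10 grey intervals include 0, the orange bars of Ctsl, Rhox5 and Tsx cross 0, and that of Kitl lies wholly below it.

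The levels spread over 2 orders of magnitude. Aard had the highest mean, 603 FPKM, followed by Clu at 529, Cst12 at 409, Cst9 at 374, Ctsl at 132, Defb36 at 106, Tsx at 61.5, Rhox5 at 51.5, Kitl at 32.6 and Trf at 5.97 FPKM. Aard, Clu, Cst12 and Cst9 each lay above 99.8% of tested genes, and Trf above 46.9%. Within every library Aard exceeded Clu, Clu exceeded Cst12 and Cst12 exceeded Cst9, but the ranges of these neighbours over the 4 libraries overlapped. The Aard to Clu ratio ran from 1.05 to 1.34, and the Cst12 to Cst9 ratio from 1.02 to 1.23. Tsx and Rhox5 changed places, with Tsx higher in 3 of 4 libraries. Of the neighbouring pairs 3 had ranges that did not meet, namely Cst9 and Ctsl, Rhox5 and Kitl, and Kitl and Trf. Together the 10 genes made up 0.529% and 0.644% of the summed FPKM in het and 0.789% and 0.614% in ko, so ko replicate 1 was highest and ko replicate 2 lay between the het libraries.

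**Figure D2:**
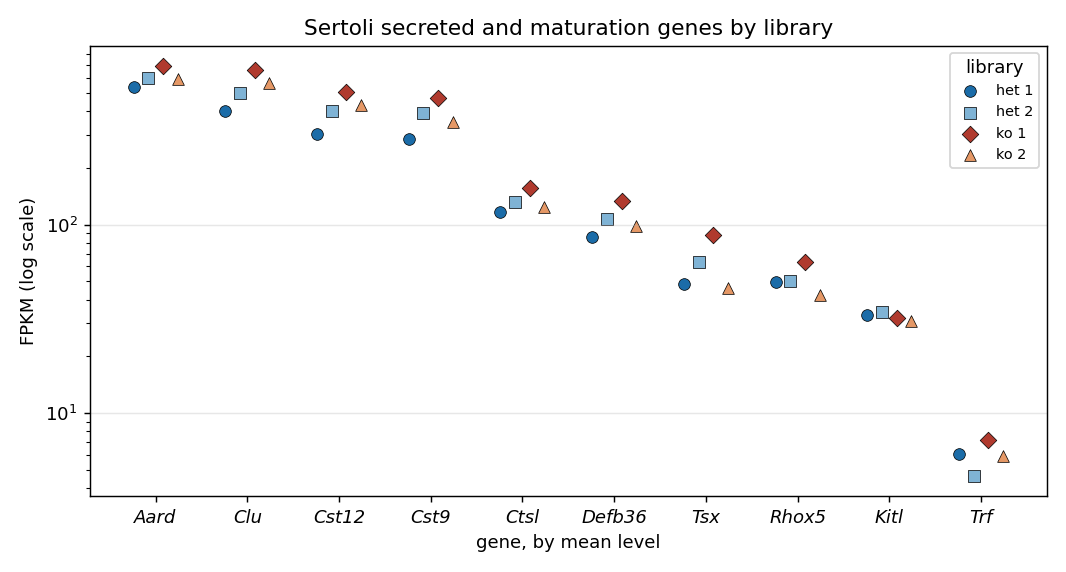
FPKM of the 10 genes (vertical axis, log scale) in each of the 4 libraries, with genes ordered by mean level and 1 point per library. Ko replicate 1 is the highest point for 9 of the 10 genes, Kitl being the exception, and het replicate 1 is the lowest for 6.

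Clu, the secreted chaperone clusterin and a major Sertoli product, measured 398 and 500.0 FPKM in heterozygotes, and 657 and 561 FPKM in knockouts. Both ko libraries were above both het libraries. The means were 449 ± 72.0 and 609 ± 67.4 FPKM (SD, n = 2 each), a ratio of 1.36. The log2 fold change was 0.44 (SE 0.17, 95% interval -0.01 to 0.90; limma with Benjamini-Hochberg adjusted p = 0.537). Clu had 20029 to 43848 reads per library, so its counting error of at most 0.707% was far below the 1.26-fold step between the het libraries.

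Trf, the iron carrier transferrin, measured 6.09 and 4.66 FPKM in heterozygotes, and 7.19 and 5.93 FPKM in knockouts. The groups overlapped, since het replicate 1 lay above ko replicate 2. Its log2 fold change was 0.25 (SE 0.16, 95% interval -0.17 to 0.67; limma with Benjamini-Hochberg adjusted p = 0.675). Trf had the fewest reads, 188 to 464 per library, with a counting error of up to 7.29%. In the GENCODE M21 annotation 2108 of its 3320 exonic bases are also exon of Gm20425 on the same strand. Of the 50-base stretches of Trf transcripts, 59.4% also occur in annotated transcripts of other genes, Gm20425 among them. How reads from the shared sequence were assigned is not given in the sources used here, and the low level of Trf is subject to it.

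Kitl, the stem cell factor through which Sertoli cells act on the Kit receptor of differentiating spermatogonia, was the 1 gene of the 10 with a negative difference. It measured 33.2 and 34.4 FPKM in heterozygotes, and 31.8 and 30.9 FPKM in knockouts. Both ko libraries lay below both het libraries, by a small step. This difference was -0.10 on the log2 scale (SE 0.08, 95% interval -0.30 to 0.10; limma with Benjamini-Hochberg adjusted p = 0.710), and it stayed between -0.13 and -0.079 when any 1 library was left out. Its replicates were the closest of the 10 in ko, with a 1.03-fold step, and a 1.04-fold step in het.

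Ctsl, the lysosomal cysteine protease cathepsin L, whose proenzyme Sertoli cells also secrete, measured 116 and 132 FPKM in heterozygotes, and 156 and 123 FPKM in knockouts. Ko replicate 1 was the highest library and ko replicate 2 lay between the het libraries. The log2 fold change was 0.16 (SE 0.15, 95% interval -0.23 to 0.56; limma with Benjamini-Hochberg adjusted p = 0.771), and without ko replicate 1 it was -0.0063. Of its 6489 exonic bases, 2137 overlap exons of Gm47123 on the opposite strand or Gm49230 on the same strand. Those genes were listed at means of 2.87 and 1.24 FPKM, and whether strand was used in counting is not given in the sources used here. Of the 50-base stretches of Ctsl transcripts, 26.3% also occur, on either strand, in annotated transcripts of other genes.

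Cst12 and Cst9 are cystatins, secreted relatives of inhibitors of cysteine proteases such as cathepsin L. Cst9, also called testatin, is known from the developing mouse testis. The pair lies in a cluster on GRCm38 chromosome 2, Cst12 from 148789361 to 148793546 and Cst9 from 148835147 to 148838738, with 41.6 kb between them. Neither shares a 50-base stretch with an annotated transcript of another gene. Cst12 measured 302 and 399 FPKM in heterozygotes, and 505 and 432 FPKM in knockouts, so that each ko library exceeded each het library. Its means were 350.2 ± 68.7 and 468 ± 51.3 FPKM (SD, n = 2 each), with a log2 fold change of 0.43 (SE 0.18, 95% interval -0.06 to 0.91; limma with Benjamini-Hochberg adjusted p = 0.568). Cst9 measured 285 and 391 FPKM in heterozygotes, and 470.1 and 349.9 FPKM in knockouts. Here the groups overlapped, with ko replicate 2 below het replicate 2. The log2 fold change of Cst9 was 0.28 (SE 0.23, 95% interval -0.32 to 0.88; limma with Benjamini-Hochberg adjusted p = 0.738).

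Defb36, a member of the beta-defensin family of small cationic peptides, also lies on chromosome 2, from 152604327 to 152612729. It measured 85.5 and 106.9 FPKM in heterozygotes, and 133 and 98.5 FPKM in knockouts. The order of its libraries was that of Cst9, with ko replicate 2 below het replicate 2. Its log2 fold change was 0.26 (SE 0.19, 95% interval -0.24 to 0.76; limma with Benjamini-Hochberg adjusted p = 0.714).

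Rhox5, an X-linked homeobox gene that responds to androgen in Sertoli cells, measured 49.7 and 50.3 FPKM in heterozygotes, and 63.3 and 42.5 FPKM in knockouts. The ko libraries lay on either side of the het libraries, which were nearly level. Its log2 fold change was 0.05 (SE 0.20, 95% interval -0.47 to 0.57; limma with Benjamini-Hochberg adjusted p = 0.953), and without ko replicate 1 it was -0.23. Its sign was also negative after quantile normalization (-0.029) and relative to the Sertoli identity markers (-0.073).

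Tsx, an X-linked testis gene next to the X-inactivation centre, had the widest step between ko libraries. It measured 48.1 and 63.3 FPKM in heterozygotes, and 88.4 and 45.97 FPKM in knockouts. Ko replicate 1 was the highest library and ko replicate 2 the lowest, 1.92-fold apart. The log2 fold change was 0.21 (SE 0.34, 95% interval -0.67 to 1.08; limma with Benjamini-Hochberg adjusted p = 0.873), -0.26 without ko replicate 1 and 0.67 without ko replicate 2. Gm26992, which overlaps 37 exonic bases of Tsx on the same strand, was likewise highest in ko replicate 1 (35.6 FPKM) and next in het replicate 2 (26.0), with 20.97 in ko replicate 2 and 20.3 in het replicate 1.

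Aard, named for an alanine- and arginine-rich domain, measured 534 and 596 FPKM in heterozygotes, and 689 and 594 FPKM in knockouts. Het replicate 2 and ko replicate 2 were level, and the groups overlapped. The genotypes differed by a log2 fold change of 0.18 (SE 0.15, 95% interval -0.21 to 0.57; limma with Benjamini-Hochberg adjusted p = 0.742).

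The genes shared an order of libraries within each genotype. Het replicate 2 lay above het replicate 1 in 9 of the 10, Trf being the exception, against 50.5% of tested genes. Ko replicate 1 lay above ko replicate 2 in all 10, against 56.8% of tested genes. Both held in 9 of the 10 genes and in 29.4% of tested genes. The steps ran from 1.01-fold (Rhox5) to 1.37-fold (Cst9) between the het libraries of those 9, and from 1.03-fold (Kitl) to 1.92-fold (Tsx) between the ko libraries. The median log2 fold change of the 10 rested on these steps: leaving out het replicate 1 or ko replicate 1 gave 0.085 and 0.056, and leaving out het replicate 2 or ko replicate 2 gave 0.33 and 0.42.

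Ratios between some of the genes were steadier than the levels. The Clu to Cst12 ratio was 1.32 and 1.25 in het and 1.30 and 1.30 in ko, with an SD of 0.032 on the log2 scale, the smallest of the 45 pairs. By this measure Cst12 ranked at 4 among 17904 tested genes for a constant ratio to Clu over the 4 libraries, Cst9 at 448 and Defb36 at 470, while Tsx ranked at 8347 and Kitl at 9546. The Cst9 to Defb36 ratio was 3.33 and 3.65 in het and 3.54 and 3.55 in ko. The loosest pair was Kitl and Tsx, whose log2 ratio had an SD of 0.434. These ratios describe 4 libraries and carry no test. When each library's mean over the 10 genes was taken as a profile, the tested genes nearest to it were Mfsd13a, Ebp, AC124742.1, Gm49909 and Esyt3, within a root mean square difference of 0.019 on the log2 scale over the 4 libraries, among 1288 tested genes within 0.1.

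The Sertoli identity markers had the same order of libraries. Their mean log2(FPKM + 1), centred on the 4 libraries, was -0.12 and -0.0030 in het and 0.16 and -0.033 in ko, and that of the 10 secreted and maturation genes was -0.21 and -0.01 in het and 0.29 and -0.07 in ko. Of the 12 markers 11 had het replicate 2 above het replicate 1 together with ko replicate 1 above ko replicate 2. Limma called 0 of the 12 and voom 0, none had an unadjusted p under 0.05, and the median log2 fold change was 0.13, with 11 above 0. Cldn11 and Inha, the inhibin alpha subunit, were the most abundant, with log2 fold changes of 0.26 and 0.28. Sox9, the Sertoli-determining factor, measured 41.7 and 47.5 FPKM in heterozygotes, and 47.9 and 47.5 FPKM in knockouts. Amh, the anti-Müllerian hormone of immature Sertoli cells, stood at 34.4 and 39.8 FPKM (het) against 38.3 and 36.5 (ko). Centred in the same way, the pachytene markers were highest in het replicate 1, at 0.85 against 0.07 in het replicate 2 and -0.46 in each ko library. Their part in the levels of the secreted genes was not tested.

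**Figure D3:**
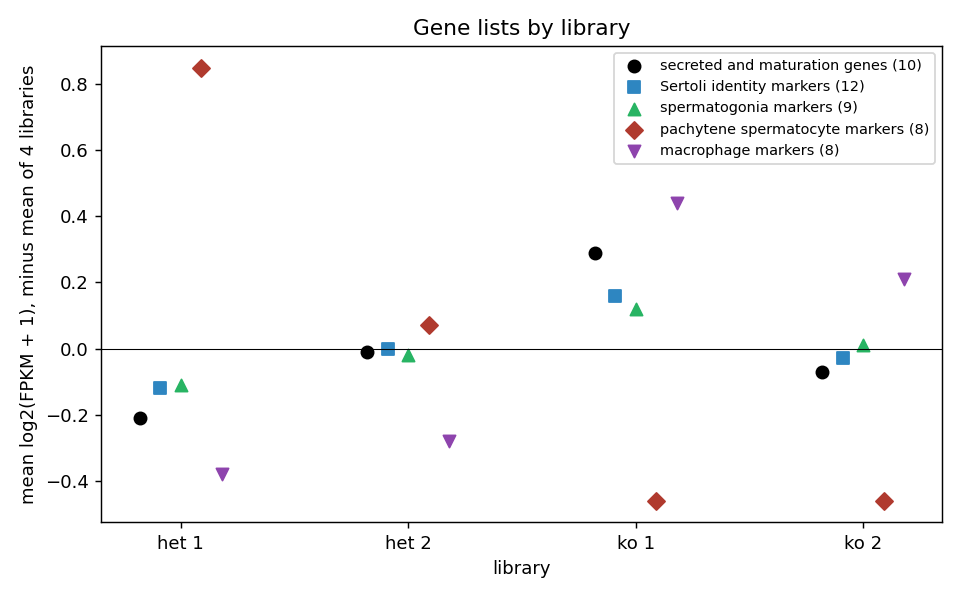
Mean log2(FPKM + 1) of 5 gene lists in each of the 4 libraries, minus the mean of the list over the libraries, with 1 point per list and library. All lists but the pachytene markers, the macrophage markers included, are lowest in het replicate 1 and highest in ko replicate 1. The pachytene markers are highest in het replicate 1.

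Set against the mean of the 12 identity markers within each library, the difference of the 10 genes between genotypes was smaller, with a median of 0.10 (log2, ko minus het), 8 above 0. Clu stood 3.47 and 3.68 log2 units above the marker mean in het and 3.91 and 3.88 in ko, and Cst12 stood 3.08 and 3.36 units above it in het and 3.53 and 3.50 in ko. Both genes therefore kept ko above het on this scale, with differences of 0.32 and 0.30. Aard also had ko above het, by 0.06, and Kitl had ko below het, with a difference of -0.23. The other 6 overlapped. None of the 10 was called by limma after this centring, which moved the median of all tested genes to -0.12. The share of all tested genes that separate on this scale was not counted, and the shares for uncentred FPKM do not carry over to it.

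**Figure D4:**
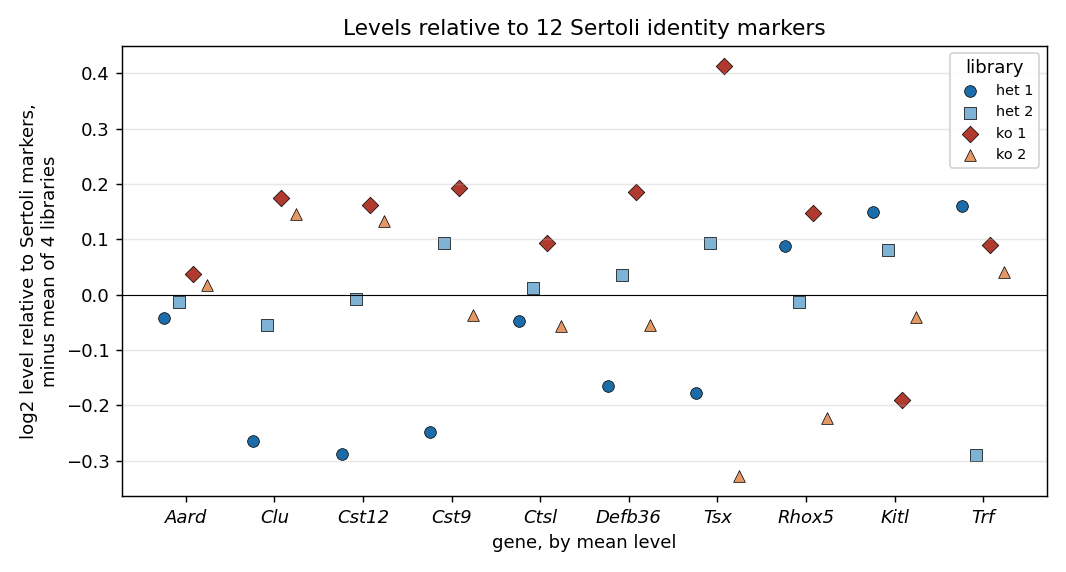
Level of each of the 10 genes relative to the mean of 12 Sertoli identity markers in the same library (log2), minus its mean over the 4 libraries, with 1 point per library and genes ordered by mean level. Both ko points lie above both het points for Aard, Clu and Cst12 and below them for Kitl.

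Cst12, Cst9 and Defb36 lie on 1 chromosome, with 3.77 Mb between Cst9 and Defb36, and Tsx had the widest step between ko libraries. These 4 shared the order of libraries within each genotype, an order held by 9 of the 10 genes and by 29.4% of tested genes. The windows before the start sites of the 4 genes are shown. Each is the 250 bases before the RefSeq start (GRCm38.p6), on the strand of the gene, 5′ to 3′. Capitals mark matches, on either strand, to TGTTCT (androgen receptor half-site), GATAA (GATA factors), ACAAT (SOX factors), CAGCTG (an E-box) or TGACGTCA (cAMP response element).
Cst12, chr2:148789115-148789364, plus strand: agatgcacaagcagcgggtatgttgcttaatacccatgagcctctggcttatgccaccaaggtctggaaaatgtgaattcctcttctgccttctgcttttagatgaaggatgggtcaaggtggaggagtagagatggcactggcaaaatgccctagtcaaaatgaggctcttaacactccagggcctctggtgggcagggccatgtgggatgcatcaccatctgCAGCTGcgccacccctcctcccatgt
Cst9, chr2:148834897-148835146, plus strand: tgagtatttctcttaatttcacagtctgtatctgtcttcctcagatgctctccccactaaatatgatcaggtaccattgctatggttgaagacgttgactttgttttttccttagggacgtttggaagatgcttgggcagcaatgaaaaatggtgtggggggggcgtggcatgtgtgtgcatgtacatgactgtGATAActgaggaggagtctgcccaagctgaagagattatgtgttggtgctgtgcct
Defb36, chr2:152604077-152604326, plus strand: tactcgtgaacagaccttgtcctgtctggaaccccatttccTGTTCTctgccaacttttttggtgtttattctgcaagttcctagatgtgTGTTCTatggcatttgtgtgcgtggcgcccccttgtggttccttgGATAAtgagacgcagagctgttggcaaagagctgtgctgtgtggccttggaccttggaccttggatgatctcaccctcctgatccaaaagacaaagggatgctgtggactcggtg
Tsx, chrX:103414217-103414466, plus strand: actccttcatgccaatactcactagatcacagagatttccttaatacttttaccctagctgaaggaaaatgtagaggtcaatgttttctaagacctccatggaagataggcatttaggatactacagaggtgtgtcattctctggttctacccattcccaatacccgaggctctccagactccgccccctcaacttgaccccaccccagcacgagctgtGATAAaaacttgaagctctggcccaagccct

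RefSeq promoter windows were matched for 7 of the 10 genes, all but Clu, Trf and Aard. GATAA was found in 3 of the 7 (Cst9, Defb36 and Tsx) and in 22.6% of 32851 windows. TGTTCT was found in 2 of the 7 (Defb36 and Rhox5) and in 16.1% of windows, ACAAT in 2 (Ctsl and Rhox5) and in 27.7%, CAGCTG in 1 (Cst12) and in 13.0%, and TGACGTCA in 0 and in 1.5%. The RefSeq start of Rhox5 lies upstream of the start in GENCODE M21, and the window belongs to the former. In that window the TGTTCT and ACAAT matches overlap each other. In the sequences shown, the GATAA match began 56 bases before the start in Cst9, 115 in Defb36 and 31 in Tsx, and the 2 TGTTCT matches of Defb36 began 209 and 160 bases before it.

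Other cystatins and lysosomal proteases were examined because Ctsl, Cst12 and Cst9 belong to these families. Of 9 other cystatins 4 were tested, 0 were called and the median log2 fold change was 0.16. Of the 4, 1 (Cst3) was higher at an unadjusted p under 0.05 (4.9% of all tested genes). Cst3, cystatin C, measured 171 and 182 FPKM in heterozygotes, and 248 and 211 FPKM in knockouts, and Cstb stood at 33.8 and 32.1 FPKM (het) against 39.9 and 31.9 (ko). Of 13 other lysosomal proteases 12 were tested and limma called 0, though 6 had higher levels with an unadjusted p under 0.05 (4.9% of all tested genes), and 2, Ctss and Ctsc, were called higher by voom (0.774% of all). Their median log2 fold change was 0.32, and in 10 of the 12 each ko library exceeded each het library, as in 22.1% of all tested genes. Ctss, cathepsin S, stood at 6.54 and 6.18 FPKM (het) against 25.1 and 17.5 (ko), and Ctsc, cathepsin C, stood at 2.75 and 2.49 FPKM (het) against 5.96 and 3.98 (ko). Ctsd, cathepsin D, measured 83.3 and 86.4 FPKM in heterozygotes, and 105 and 94.0 FPKM in knockouts, and Lgmn stood at 43.5 and 57.3 FPKM (het) against 75.8 and 55.1 (ko). Macrophages also express many of these proteases. Of the 8 macrophage markers limma called 1 higher, C1qb, which rose from 16.6 and 16.1 FPKM in het to 46.5 and 39.9 FPKM in ko (limma with Benjamini-Hochberg adjusted p = 0.0375). That call ended with any 1 library left out (limma with Benjamini-Hochberg adjusted p of 0.183 to 0.373), without the filter (0.162) and with the replicate block (0.0705). In the macrophage list 5 were higher at an unadjusted p under 0.05 (4.9% of all tested genes), voom called 3 higher (0.774% of all), and the median was 0.56. Its most abundant members, Lyz2 and C1qa, had means of 33.1 and 31.7 FPKM and log2 fold changes of 0.96 and 1.31. Their part in the protease levels was not tested.

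Beta-defensins of the chromosome 2 cluster were mostly at or near 0. Of 10 with a row, 3 were tested and 0 called, and 3 were listed at 0 in every library. Defb19 was by far the most abundant, with 305 and 394 FPKM in heterozygotes, and 608 and 451 FPKM in knockouts, with both ko libraries above both het libraries. Its log2 fold change was 0.59 (SE 0.22, 95% interval 0.03 to 1.15; limma with Benjamini-Hochberg adjusted p = 0.529). Defb45 stood at 3.47 and 4.18 FPKM (het) against 5.92 and 4.06 (ko). The list median was 0.30 over the 3. With an unadjusted p under 0.05, 1 was higher (4.9% of all tested genes) and 1 was lower (4.41%).

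Genes that receive the secreted products showed no calls by limma. Kit, the receptor for Kitl, measured 10.9 and 11.6 FPKM in heterozygotes, and 12.0 and 10.4 FPKM in knockouts, and the 9 genes of the Kit pathway had a median log2 fold change of -0.01 with 0 called. Akt1, a kinase downstream of Kit, stood at 32.1 and 32.7 FPKM (het) against 37.5 and 32.4 (ko), and Adam10, a sheddase, at 37.1 and 41.6 FPKM (het) against 43.2 and 37.2 (ko). Tfrc, the transferrin receptor, measured 25.2 and 26.4 FPKM in heterozygotes, and 25.1 and 20.7 FPKM in knockouts. Among 11 iron handling genes limma called 0, and the median was 0.04. An unadjusted p under 0.05 was found for 1 that was higher (4.9% of all tested genes) and 1 that was lower (4.41%). Voom called 1 higher (0.774% of all), the ferritin light chain gene Ftl1. Ftl1 stood at 91.3 and 100.1 FPKM (het) against 141 and 124 (ko) and Fth1, the heavy chain gene, at 90.4 and 88.0 FPKM (het) against 113 and 94.6 (ko). Lrp2, megalin, a receptor that takes up clusterin, was near 0 at a mean of 0.232 FPKM and was not tested. Lrp8, the 1 tested clusterin receptor of 4, stood at 17.3 and 20.2 FPKM (het) against 21.4 and 16.3 (ko).

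Of 33 other Rhox genes 7 were tested and 0 called, with a median log2 fold change of 0.15. Among the 7, 1 was higher at an unadjusted p under 0.05 (4.9% of all tested genes). Rhox8, the other Rhox gene abundant here and known from Sertoli cells, measured 116 and 121 FPKM in heterozygotes, and 140.3 and 112 FPKM in knockouts, and Rhox13, a germ cell member, stood at 23.2 and 24.1 FPKM (het) against 26.4 and 28.4 (ko). Copies within the Rhox cluster are closely related, and the split of reads among them is uncertain, but Rhox5 shared no 50-base stretch with another annotated transcript. Of the 8 androgen-linked Sertoli genes, which include Rhox8, 0 were called and 0 had an unadjusted p under 0.05, with a median of 0.07. Eppin, a protease inhibitor, measured 71.0 and 82.4 FPKM in heterozygotes, and 108 and 74.9 FPKM in knockouts. The list was highest in ko replicate 1 and lowest in ko replicate 2, at centred means of 0.31 and -0.19. Of 10 other secreted Sertoli products 9 were tested and 0 called, with a median of 0.14. Sparc, a matricellular protein, stood at 395 and 396 FPKM (het) against 489 and 390.1 (ko), and Psap, prosaposin, at 238 and 277 FPKM (het) against 318 and 283 (ko).

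The markers of the remaining cell types gave 0 calls by limma. Their median log2 fold changes were 0.18 over 6 Leydig markers, -0.08 over 5 peritubular, -0.15 over 4 endothelial, 0.13 over 9 spermatogonia and -0.69 over 7 pachytene markers. At an unadjusted p under 0.05, 3 pachytene and 1 endothelial marker were lower (4.41% of all tested genes) and 1 spermatogonia marker was higher (4.9%). Voom called 3 of the pachytene markers lower (0.619% of all tested genes), namely Ldhc, Piwil1 and Adam2, and none of the others. Their log2 fold changes in limma were -2.04, -1.99 and -1.31, and het replicate 1 was the highest library for each, at 78.0, 28.1 and 13.6 FPKM against 30.7, 14.3 and 6.88 in het replicate 2. Ko replicate 1 held 11.7, 3.65 and 2.81 FPKM of them and ko replicate 2 held 10.6, 5.01 and 3.93. The most abundant tested members were Insl3 and Hsd3b1 for Leydig cells (means of 75.2 and 40.3 FPKM, log2 fold changes of 0.35 and 0.01), Acta2 and Tagln for peritubular cells (159 and 49.4 FPKM, -0.01 and 0.21) and Kdr and Cdh5 for endothelium (2.13 and 8.03 FPKM, -0.01 and -0.24). In germ cells they were Uchl1 and Stra8 for spermatogonia (104 and 55.5 FPKM, 0.36 and 0.06) and Ybx2 and Hspa2 for pachytene cells (106 and 68.7 FPKM, -0.69 and -0.65). Epididymis and rete markers, for the ducts that also make clusterin and cystatins, were near 0, with 7 of 9 under 1 FPKM in every library and 1 of them listed at 0 throughout. Their 2 tested members were Cst8, with 6.57 and 7.33 FPKM in heterozygotes, and 11.1 and 5.71 FPKM in knockouts, and Cst11, at 2.999 and 2.14 FPKM (het) against 2.34 and 3.57 (ko). The summed level of the 9 was 10.1 and 10.8 FPKM in heterozygotes, and 14.2 and 9.89 FPKM in knockouts.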

How the data were processed

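The values deposited by the authors are FPKM, per the file headers, with rows named by symbol in each table. The submitters' processing notes name GRCm38 together with featureCounts, edgeR, CASAVA 1.9 and STAR 2.6.1a, and give no role or setting. The sources used here give neither the annotation release nor the strand setting. Of 55401 rows, 96.0% matched 1 gene of GENCODE M21 (GRCm38) by symbol, and 217 rows with a repeated symbol were kept as separate rows. FPKM times exon length gave whole reads: in each library at least 99.1% of values no higher than 20 reads fell within 0.02 of a whole number. The read totals come from this step.

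Rows with a mean of at least 1 FPKM (17905) were fitted on genotype as log2(FPKM + 1) with limma 3.58.1 (R 4.3.3, trended prior variance) and adjusted by the Benjamini-Hochberg method over all of them. This scale understates changes of low genes. All 10 genes passed the filter. Counting errors cover counting only, as reads carry no molecular identifiers. The code was tested on simulated reads with a preset spread, which checks the code and not the spread between these libraries. The genes, lists and tests were chosen with earlier results of these data known, so no list was tested. The genes named are the 10, Kctd19, set counterparts, list members called by limma or voom, the 2 most abundant tested members of each list, and genes whose exons overlap the 10, added later. Lists covered 8 cell types (Sertoli identity, Leydig, peritubular, endothelial, macrophage, spermatogonia, pachytene, epididymis and rete) and 9 families or pathways. No protein sequence was used here.

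The alternatives tried left out the filter or each library in turn, set the pseudocount to 0.1, added a replicate block, or used median-of-ratios scaling, quantile normalization, centring on the Sertoli identity markers, or voom on whole reads (17446 genes).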

Additional observations from a re-analysis of the deposited data

How the results depend on the processing

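The calls of the 10 genes did not change: limma or voom called 0 higher and 0 lower under each of the 11 alternatives, with Benjamini-Hochberg adjusted p values of 0.122 to 0.998 for single genes. The values without the filter and with the replicate block equal those of the main fit by construction and could not change sign. Of 110 values, these included, 5 changed sign, none of them called. These were Ctsl (-0.0063), Rhox5 (-0.23) and Tsx (-0.26) without ko replicate 1, against 0.33, 0.33 and 0.67 without ko replicate 2, and Rhox5 after quantile normalization (-0.029) and centring on the Sertoli markers (-0.073), and the cause was not tested. The median log2 fold change of the 10 ran from 0.056 to 0.42 with 1 library left out and from 0.10 to 0.26 under the other alternatives. The count of 0 among the 10 genes at an unadjusted p under 0.05 was compared over the alternatives that kept all 4 libraries. It became 2 higher with voom, where 932 of 17446 tested genes were higher. That count became 1 higher after median-of-ratios scaling (871 of 17905 tested genes) and 1 higher after centring on the Sertoli markers (307 of 17905). Over all genes, limma called 37 higher and 2 lower. It called 0 and 0 without the filter, 15 and 0 with the replicate block, and 0 to 0 in either direction with 1 library left out (with an unadjusted p under 0.05 for 563 to 986 higher genes and 498 to 1034 lower genes). It called 8 lower after centring on the Sertoli markers, and voom called 135 higher and 108 lower. Whether same-numbered libraries were paired is not given in the sources used here. Their deviations correlated at -0.034 across genes, which does not settle it. In this balanced layout the replicate block can change only the error of a difference, not the difference itself, and it called none of the 10 genes. With 2 libraries a group, the intervals leave room for changes of up to 1.08 on the log2 scale (Tsx), and 188 reads limit Trf.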
